A study of Homo sapiens with 22 samples.

Results

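The genes described here are 8 components of the Wnt pathway, and their members are the CUT&Tag peaks with a summit within 100 kb of a fixed start site (build hg19) of WNT5A, FZD7, LGR5, DKK1, RNF43, AXIN2, TCF7L2 or LEF1. Of 508791 peaks on chromosomes 1 to 22 and X in 22 peak lists, 242 met this rule: 132 around TCF7L2, 54 around FZD7, 26 around RNF43, 16 around DKK1, 10 around AXIN2, 2 around LGR5 and 1 each around LEF1 and WNT5A. In CUT&Tag an antibody guides a transposase to its target in nuclei, and the released fragments are sequenced. All libraries were from AN3CA, a cell line derived from a human endometrial carcinoma.

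AN3CA cells carried wild-type ARID1A (WT), a mutant of its ARID domain (DBDmut), a truncation named delIDR1, a truncation named CBR, a hybrid with the disordered region named for DDX4, or an empty vector (Empty). ARID1A is a large subunit of canonical BAF, a SWI/SNF chromatin remodeller. The antibodies were to SMARCA4, the ATPase of BAF, to SMARCC1, a core BAF subunit, and to acetylated lysine 27 of histone H3 (H3K27ac), found at promoters and enhancers in use. Each ARID1A form had 1 library per antibody and Empty had 2, so no difference between single forms has a replicate check and no p-value is given. One further library, of the HA tag in DDX4 cells, had 5390 peaks and 0 in these windows. The labels give neither the level of each ARID1A form nor whether libraries came from separate cultures.

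Canonical Wnt signalling works by stabilising β-catenin. Secreted Wnt ligands bind Frizzled receptors with an LRP co-receptor, the β-catenin destruction complex is switched off, and β-catenin then acts with TCF and LEF proteins on DNA to turn on target genes. Several of those targets, among them AXIN2, RNF43, LGR5 and DKK1, act back on the pathway, and Wnt signalling takes part in the growth and cycling of the endometrium.

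Peaks of the BAF subunits and of H3K27ac were gathered at a few of the 8 genes. The start site of TCF7L2 had a peak of all 3 antibodies in all 7 libraries, and a site 12 kb upstream of DKK1 had SMARCC1 in all 7 and SMARCA4 in 6. WT cells had 6 sites with both subunits. Of these, 3 (45.0% over the genome) had a peak of neither subunit in either Empty replicate. They lay 41.7 and 98.4 kb downstream of TCF7L2 and 55.4 kb upstream of FZD7. In any mutant, 0 of the 3 had both subunits. The genome share of such sites with both subunits ran from 0.479% (DDX4) to 35.5% (DBDmut). A count of 0 among 3 sites is not set apart from these shares. Of 34 WT H3K27ac peaks, 18 overlapped none of Empty (40.0% over the genome), 9 of them around FZD7 and 5 around TCF7L2. LEF1, LGR5 and WNT5A had no H3K27ac peak in any library.

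Promoter sequences are given for TCF7L2, whose start site is compared below, and for DKK1 and LEF1. Neither DKK1 nor LEF1 had a peak within 1 kb of its fixed hg19 start in any library. The DKK1 site compared below lies 12.0 kb upstream of that start, outside the printed sequence. They are the RefSeq sequences of build GRCh38.p14 from 250 bases before to 50 bases after the annotated start, printed on the gene's strand. Capitals mark matches to the TCF/LEF letters CTTTGAT or CTTTGAA, searched on both strands.
TCF7L2 (chr10:112949997-112950296, plus strand): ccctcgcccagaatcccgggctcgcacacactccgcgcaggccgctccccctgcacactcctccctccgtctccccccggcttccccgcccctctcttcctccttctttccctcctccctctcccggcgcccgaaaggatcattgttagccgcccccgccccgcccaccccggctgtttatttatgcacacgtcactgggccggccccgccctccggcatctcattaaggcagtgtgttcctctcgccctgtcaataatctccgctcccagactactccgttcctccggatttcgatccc
DKK1 (chr10:52314031-52314330, plus strand): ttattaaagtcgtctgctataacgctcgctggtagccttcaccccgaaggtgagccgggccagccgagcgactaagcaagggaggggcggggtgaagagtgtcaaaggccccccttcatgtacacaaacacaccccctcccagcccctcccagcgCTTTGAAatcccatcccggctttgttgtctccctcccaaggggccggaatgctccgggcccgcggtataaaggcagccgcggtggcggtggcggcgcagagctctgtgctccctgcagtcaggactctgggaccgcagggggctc
LEF1 (chr4:108166252-108166551, minus strand): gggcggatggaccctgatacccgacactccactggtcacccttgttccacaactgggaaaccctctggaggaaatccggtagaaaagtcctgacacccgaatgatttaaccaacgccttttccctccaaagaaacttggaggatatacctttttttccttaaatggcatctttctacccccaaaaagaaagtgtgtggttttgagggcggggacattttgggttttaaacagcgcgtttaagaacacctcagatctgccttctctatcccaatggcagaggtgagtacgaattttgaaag
RefSeq promoters were found for 5 of the 8 genes. DKK1 had 1 TCF/LEF match, and TCF7L2, LEF1, WNT5A and RNF43 had 0, where 6.86% of 35116 RefSeq promoters held a match. The AP-1 letters TGANTCA, searched on both strands, were in 0 of the 5 and in 7.71% of all promoters. Matches of the 2 motifs can overlap each other, but without an AP-1 match in these 5 no overlap was possible. A match is a description of letters, not of binding. TCF7L2 had the highest GC content of the 5 at 65.7%, DKK1 had 63.7%, WNT5A 56.3%, RNF43 54.3% and LEF1 47.0%, and the median over all promoters was 58.7%. The GRCh38 coordinates of these promoters were not converted to hg19, which all peak positions below use. Whether each annotated start, that of LEF1 included, is the fixed hg19 start of its window was thus not checked. A printed promoter may belong to another start of the same gene.

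Peak lists differed in length, which bears on every count that follows. SMARCA4 lists held 7130 to 15207 peaks in cells with an ARID1A form, against 5567 and 9409 in Empty replicates 1 and 2, SMARCC1 lists 9685 to 23855, against 13641 and 15461, and H3K27ac lists 31745 to 50885, against 36348 and 92057. The H3K27ac list of Empty replicate 2 stood apart, being the longest. Peak names carried 3 stamps whose meaning the labels do not state: 1 for the DDX4 libraries, 1 for Empty replicate 2 and 1 for all others. Stamp and construct cannot be told apart for DDX4 or for Empty replicate 2. Total fragment numbers are not in the lists, so the depth of each library is unknown. Cell identity was not checked against marker genes here, because no hg19 annotation was at hand.

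WT cells had 8 SMARCA4 peaks in the 8 windows. DBDmut had 7, delIDR1 3, CBR 2 and DDX4 1, against 2 in Empty replicate 1 and 4 in Empty replicate 2. WT was highest, and delIDR1, CBR and DDX4 were within or below the range of Empty. These windows held 0.0618% of the WT SMARCA4 list, against 0.0359% and 0.0425% of the Empty lists, and 0.0114% of the DDX4 list. For SMARCC1 the counts were 10 in WT, 8 in DBDmut, 6 in CBR, 5 in delIDR1 and 4 in DDX4, against 3 and 5 in Empty. As shares of the lists these were 0.0419% in WT, 0.0424% in DBDmut, 0.0501% in CBR, 0.0477% in delIDR1 and 0.0413% in DDX4, against 0.022% and 0.0323% in Empty. Relative to list length, the WT count of SMARCC1 peaks thus lay within the range of the mutants.

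H3K27ac peaks numbered 34 in WT, 18 in DBDmut, 17 in CBR, 12 in delIDR1 and 19 in DDX4, against 13 for Empty replicate 1 and 61 for Empty replicate 2. The WT count lay between the 2 Empty counts, so WT and Empty overlapped. Empty replicate 2 alone had 34 regions with H3K27ac that no other library of any antibody marked. Its 61 peaks were 0.0663% of its list, against 0.0358% in Empty replicate 1, and WT had 0.0668%. Overlapping peaks merged into 97 regions, of which 61 were found in a single library. H3K27ac was found in all 7 libraries at 4 regions, 3 around TCF7L2 and 1 upstream of FZD7. A BAF subunit was present in 24 regions, H3K27ac in 88 and both in 15. Regions were merged in these windows only, and genome shares for the region counts were not computed. None of them is read as particular to these windows.

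**Figure D1:**
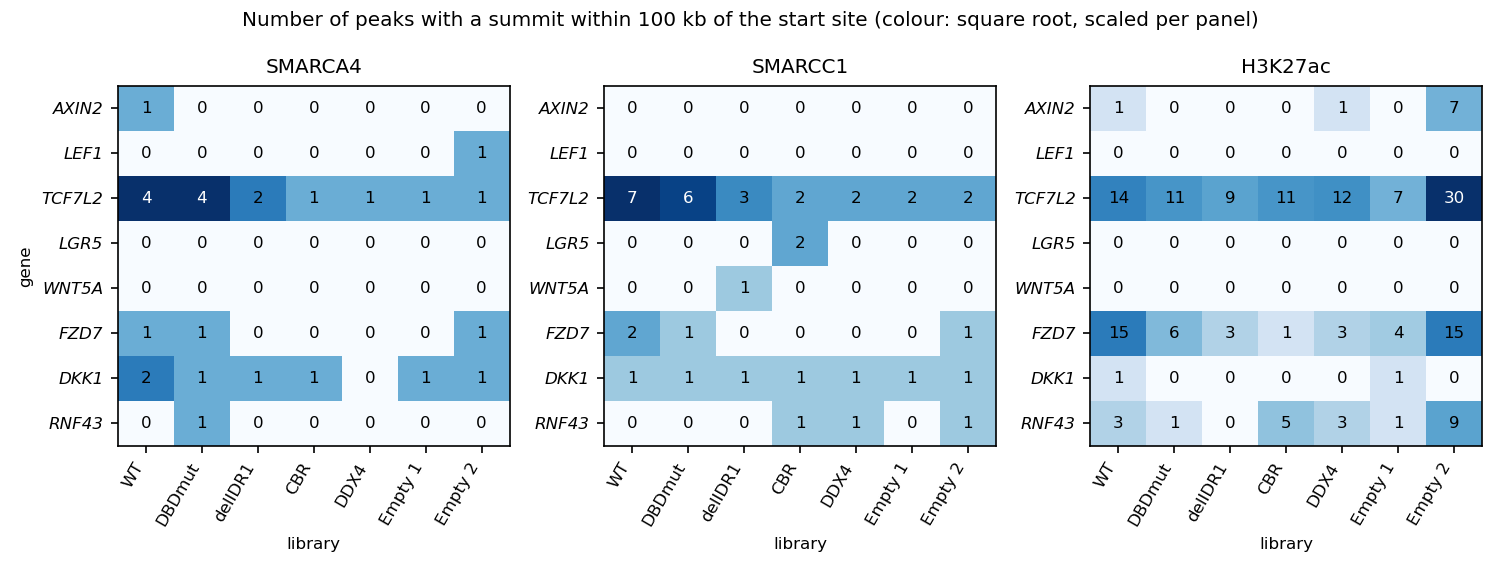
Number of peaks with a summit within 100 kb of each start site (rows) in each library (columns) for SMARCA4, SMARCC1 and H3K27ac. TCF7L2 and FZD7 hold most peaks, WT and DBDmut have the most subunit peaks at TCF7L2, and H3K27ac of Empty 2 reaches 30 peaks at TCF7L2.

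The ligand WNT5A, a secreted Wnt protein best known for signalling outside the β-catenin branch, had nearly no signal in its window. Its single peak was SMARCC1 in delIDR1, 34.9 kb downstream of the start (chr3:55521331), with a fold enrichment of 5.12. Fold is the authors' ratio of fragments at the summit plus 1 to the local background plus 1. That peak ranked 8612 of 10477 in its list by −log10 q, q being the authors' p-value adjusted over the genome, so it was among the weaker ones. Folds and ranks describe a peak within its own list and are not compared as levels between libraries. The nearest H3K27ac peak of any library lay 316.9 kb from the start, and 19.1% of the 12121 genome tiles of 200 kb that held a peak in any list had no H3K27ac peak in the 7 H3K27ac lists. Tiles without any peak were not counted, here and below.

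The receptor FZD7 (start chr2:202899310) is a Frizzled protein that binds Wnt ligands, and its H3K27ac peak number differed between libraries. WT had 15 H3K27ac peaks in its window, DBDmut 6, delIDR1 3, CBR 1 and DDX4 3, against 4 in Empty replicate 1 and 15 in Empty replicate 2. WT was above every mutant and above Empty replicate 1, and equal to Empty replicate 2. Of the 200 kb tiles with a peak in any list, 5.07% had at least 15 WT H3K27ac peaks. Although WT and Empty replicate 2 had equal counts, 9 of the 15 WT peaks overlapped H3K27ac in neither Empty replicate, where 40.0% did so over the genome. In RefSeq, FZD7 lies between CDK15 and KIAA2012, and the distance to a start does not say which gene a peak belongs to.

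The H3K27ac marks shared across constructs lay close to FZD7. A region around 1.6 kb upstream of the start had H3K27ac in all 7 libraries, with folds of 4.99 in WT, 5.32 in DBDmut, 4.46 in CBR, 7.3 in delIDR1 and 5.29 in DDX4, against 6.92 and 5.28 in Empty for the strongest peak of each. A region about 4.8 kb downstream had H3K27ac in all but CBR, and one about 30 kb downstream had it in WT, DBDmut, delIDR1, DDX4 and Empty replicate 2. At 30 kb the folds were 9.25 in WT, 7.56 in DBDmut, 9.27 in delIDR1 and 9.64 in DDX4, against 4.81 in Empty replicate 2. CBR was the library with the fewest H3K27ac peaks at FZD7, keeping only the upstream region, and Empty replicate 1 lacked the region at 30 kb.

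BAF subunits were sparse at FZD7. The WT site 55.4 kb upstream (chr2:202843906-202843999) had SMARCA4, SMARCC1 and H3K27ac in WT and no peak of any antibody in any other library. It was weak, with a SMARCA4 fold of 3.97 and a summit pileup of 4 fragments, and a SMARCC1 fold of 5.02 and a pileup of 9. Its SMARCA4 −log10 q was 2.05, close to the lowest value in the list, and it ranked 12922 of 12949. Multiplied by the ratio of the lowest backgrounds of the 2 libraries, the WT SMARCA4 pileup gave a −log10 p of 4.44 in DBDmut, 4.21 in CBR and 4.11 in delIDR1, against 5.17 in Empty replicate 1, each below the weakest listed peak of that library (4.9, 4.97, 5.22 and 5.32). By this scaling an absence of SMARCA4 there could not be read in those 4 libraries. In Empty replicate 2 the scaled value was 9.05. However, the same scaling gave 57.1 fragments at the DKK1 site and 61.6 at the TCF7L2 start in that library. The SMARCA4 pileups of Empty replicate 2 there were 17 and 20. Whether a SMARCA4 peak this weak could be listed in either Empty replicate was thus not settled, nor was the call as gained. A WT SMARCC1 peak of fold 4.76 lay on the shared H3K27ac region 30.2 kb downstream. Within about 1.6 kb upstream of the start, SMARCA4 peaks were listed in DBDmut and Empty replicate 2 and a SMARCC1 peak in Empty replicate 2, all with folds under 5. The gained H3K27ac peak with the highest −log10 q at FZD7 lay 75.2 kb downstream (chr2:202974432-202975065, fold 8.07, −log10 q 17.4). DBDmut had H3K27ac there too, with a fold of 6.88, and a SMARCC1 peak of fold 4.69, whereas delIDR1, CBR, DDX4 and both Empty replicates had no peak there.

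**Figure D2:**
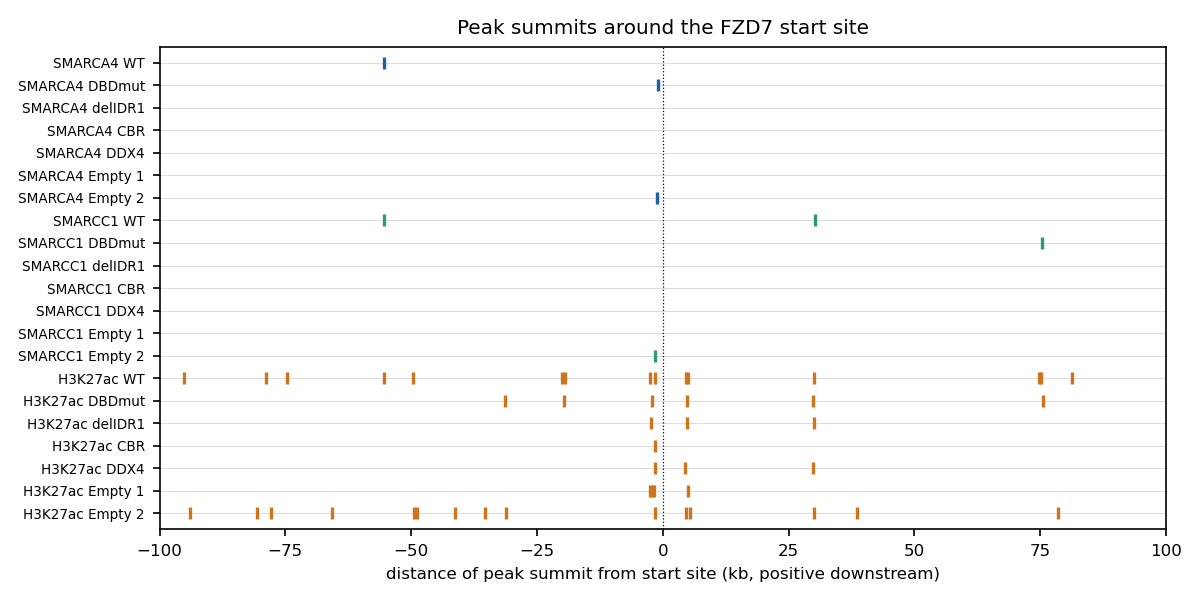
Summits of peaks within 100 kb of the FZD7 start site (dotted line), in kb, with 1 row per antibody and library. The H3K27ac row of WT holds 15 summits, spread over the window and largely at other positions than the 15 of Empty 2, and CBR holds 1.

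LGR5, the receptor for R-spondins that marks Wnt-dependent stem cells, had 2 peaks, both SMARCC1 in CBR. They lay 47.3 and 70.9 kb upstream of the start (chr12:71833813) with folds of 8.55 and 5.92. No other library had a peak in the window. The nearest H3K27ac peaks of the 7 libraries lay 196.6 to 222.8 kb away. In RefSeq LGR5 lies between TSPAN8 and ZFC3H1.

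DKK1 encodes a secreted inhibitor that blocks the LRP co-receptor. It had 1 strong BAF site, 12.0 kb upstream of the start (chr10:54074041), at chr10:54061927-54062161 in the WT SMARCA4 list. SMARCC1 folds there were 27.3 in WT, 23.7 in DBDmut, 29.4 in CBR, 14.3 in delIDR1 and 26.4 in DDX4, against 29.0 and 19.6 in Empty. By −log10 q the site ranked 45 of 23855 in WT, 103 of 18849 in DBDmut, 550 of 10477 in delIDR1, 39 of 11983 in CBR and 46 of 9685 in DDX4, against 33 of 13641 and 328 of 15461 in Empty. It was thus in the top 5.25% of the SMARCC1 list or higher in all 7 libraries. Summits of all 7 SMARCC1 peaks lay 11910 to 11960 bp upstream of the start.

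SMARCA4 at that DKK1 site was found in every construct but DDX4. Its folds were 16.6 in WT, 9.03 in DBDmut, 6.75 in delIDR1 and 25.2 in CBR, against 17.3 and 10.3 in Empty. The WT pileup of 25 fragments, multiplied by the ratio of the lowest backgrounds of the 2 libraries, gave 34.8 fragments in DDX4 and a −log10 p of 45.6, where the weakest peak of the DDX4 list had 4.99. The scaled value lies above the weakest listed peak. It assumes that fragments at the site scale with the background. SMARCC1 in DDX4 was present there with a pileup of 88. H3K27ac at the site was found in WT only, with a fold of 6.08 and a pileup of 9. The 2 other peaks in the window were a weak WT SMARCA4 peak 98.3 kb upstream (fold 4.2) and an H3K27ac peak of Empty replicate 1 34.1 kb upstream (fold 11.9). No library had a peak within 1 kb of the DKK1 start. Whether the RefSeq promoter printed above, which holds the TCF/LEF letters, belongs to that start was not checked.

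RNF43, a membrane ubiquitin ligase that removes Frizzled receptors, had no peak within 1 kb of its start (chr17:56494931). Its most shared region, about 65.3 kb downstream, had H3K27ac in WT, DBDmut, CBR, DDX4 and both Empty replicates and not in delIDR1. The highest fold there was 5.78 in WT, 5.15 in DBDmut, 6.43 in CBR and 5.26 in DDX4, against 7.84 and 7.72 in Empty. DBDmut also had a SMARCA4 peak there, of fold 6.3. A region 30.1 kb upstream had SMARCC1 in CBR, DDX4 and Empty replicate 2, with folds of 11.1 in CBR and 6.81 in DDX4, against 6.33 in Empty replicate 2, and H3K27ac in DDX4 and Empty replicate 2. WT, DBDmut, delIDR1 and Empty replicate 1 had no peak at that region, so a SMARCC1 peak was listed there with and without an ARID1A form but not with WT. The gained H3K27ac peak of highest −log10 q at RNF43 lay 64.8 kb downstream, with a fold of 3.85 and a −log10 q of 2.49. It belongs to the merged region at 65.3 kb that has H3K27ac in both Empty replicates, whose own peaks there do not overlap it.

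AXIN2, a scaffold of the destruction complex and a widely used Wnt target gene, had 10 peaks. H3K27ac was at its start (chr17:63557740) in DDX4, with a fold of 7.2, and, with a fold of 6.37, in Empty replicate 2 and in no other library. Apart from DDX4, the libraries with ARID1A and Empty replicate 1 thus had no H3K27ac peak at the AXIN2 start. These 2 libraries also had the highest lowest background of the 7 H3K27ac lists, 1.053 fragments in DDX4 and 2.018 in Empty replicate 2, where the others had 0.431 to 0.814, and the part of depth in this was not tested. The WT library had 1 H3K27ac peak, 48.4 kb upstream (fold 7.9, −log10 q 9.71), over a SMARCA4 peak (fold 6.15). No other library of any antibody had a peak there, and no library had SMARCC1 anywhere in the window. Scaled to the other libraries, that WT SMARCA4 pileup of 6 fragments gave −log10 p of 7.25 in DBDmut, 8.7 in CBR, 8.54 in delIDR1 and 12.1 in DDX4, against 9.89 and 19.8 in Empty, each above the weakest peak of its list.

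**Figure D3:**
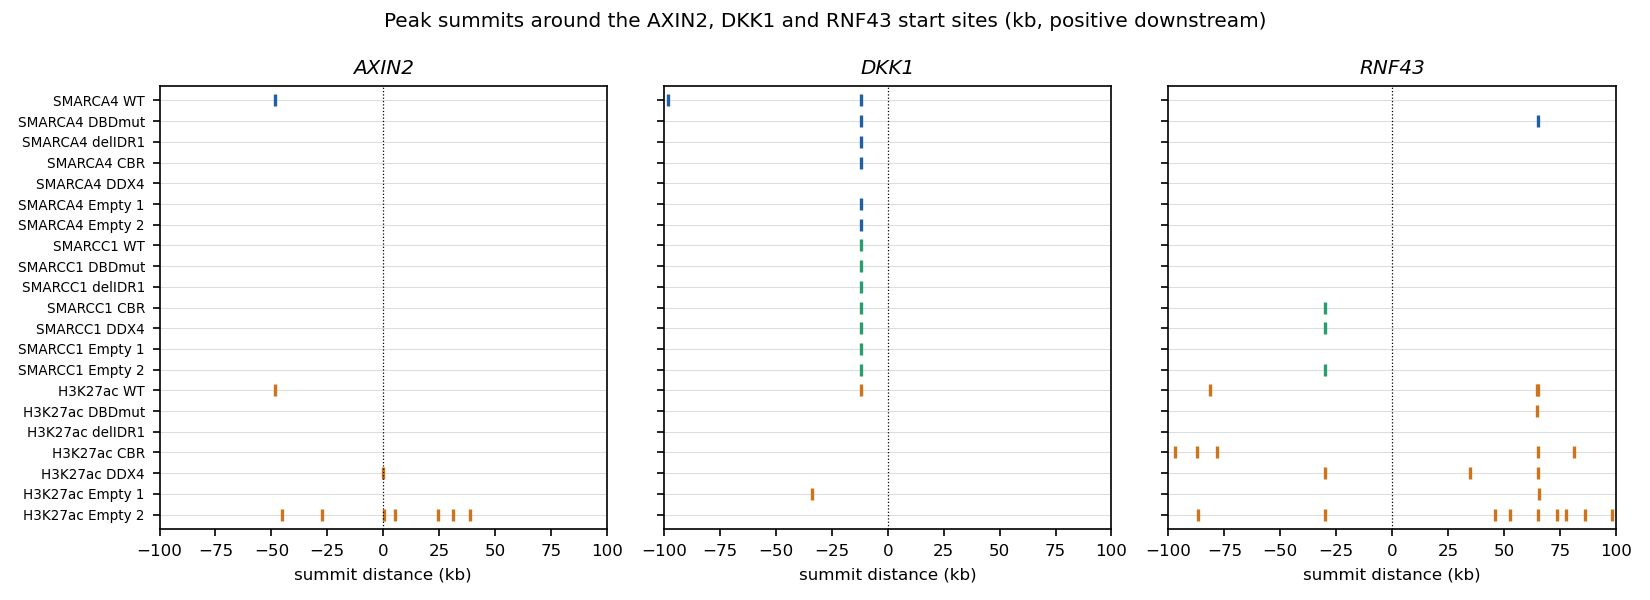
Summits of peaks within 100 kb of the AXIN2, DKK1 and RNF43 start sites (dotted lines), in kb, with 1 row per antibody and library. The DKK1 site 12 kb upstream is marked in 13 of 14 subunit rows, RNF43 shows H3K27ac about 65 kb downstream in 6 of 7 rows, and AXIN2 has a start peak only in DDX4 and Empty 2.

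TCF7L2, the TCF transcription factor that carries β-catenin on DNA in many epithelia, held 132 of the 242 peaks. WT had 14 H3K27ac peaks in its window, and 6.16% of the 200 kb tiles with a peak in any list had at least 14. At the TCF7L2 start (chr10:114710009) all 21 lists of the 3 antibodies had a peak, and the WT SMARCA4 peak spanned chr10:114709776-114710091. SMARCA4 folds were 12.2 in WT, 13.1 in DBDmut, 7.08 in CBR, 6.97 in delIDR1 and 7.57 in DDX4, against 8.86 and 6.68 in Empty. SMARCC1 folds were 11.5 in WT, 11.7 in DBDmut, 10.2 in CBR, 9.12 in delIDR1 and 11.5 in DDX4, against 13.4 and 7.51 in Empty. WT and DBDmut placed the start in the top 4.5% and 3.41% of their SMARCA4 lists, and the other SMARCA4 lists in the top 25.4% to 50.2%.

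H3K27ac folds at the TCF7L2 start were 5.09 in WT, 4.28 in DBDmut, 3.76 in CBR, 3.14 in delIDR1 and 4.18 in DDX4, against 6.53 and 3.64 in Empty. The peak was thus present with and without ARID1A. SMARCA4 summits lay 25 to 28 bp upstream of the start in 6 of 7 libraries, and 260 bp upstream in delIDR1. SMARCC1 summits lay 12 to 27 bp upstream in 6 libraries and 23 bp downstream in delIDR1. All of these positions fall within 300 bp of the hg19 start. The RefSeq promoter of TCF7L2 is the first sequence printed above, and whether it belongs to this start was not checked. A second H3K27ac region, 1.8 kb downstream, was also in all 7 libraries, with no subunit peak.

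Downstream of that start, BAF subunits differed between constructs. At 9.3 kb (chr10:114719227-114719364) WT, DBDmut and delIDR1 had both subunits and H3K27ac, DDX4 had H3K27ac only, and CBR had no peak, against SMARCC1 only in Empty replicate 1 and H3K27ac only in Empty replicate 2. SMARCA4 folds were 7.49 in WT, 7.05 in DBDmut and 10.1 in delIDR1, and SMARCC1 folds were 5.57 in WT, 8.26 in DBDmut and 10.3 in delIDR1, against 5.88 in Empty replicate 1. Both subunits were thus present in 3 of the 5 ARID1A forms and in neither Empty replicate. Scaled from WT, the SMARCA4 pileup gave −log10 p of 11.4 in CBR and 17.5 in DDX4, against 12.4 and 28.4 in Empty, above the weakest peak of each list. At 6.7 kb DBDmut had both subunits and H3K27ac, and WT and delIDR1 had SMARCC1.

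The 2 gained TCF7L2 sites lay farther downstream. At 41.7 kb (chr10:114751696-114751821) the WT folds were 7.28 for SMARCA4, 9.6 for SMARCC1 and 6.81 for H3K27ac, and this H3K27ac peak, with a −log10 q of 24.1, had the highest −log10 q of the 18 gained ones, with 3 others higher by fold. DBDmut, CBR and DDX4 had H3K27ac there with folds of 4.63, 4.64 and 3.71 and no subunit peak, delIDR1 had no peak, and neither Empty replicate had one. Scaled from WT, SMARCC1 gave −log10 p of 10.1 in DBDmut, 14.9 in CBR, 8.78 in delIDR1 and 8.84 in DDX4, against 12.6 and 18.6 in Empty, all above the weakest listed peaks of 4.71 to 5.07. SMARCA4 did likewise, at 8.4 to 14.6 in the mutants, against 11.2 and 22.7 in Empty. At 98.4 kb (chr10:114808399-114808518) the WT folds were 5.46 and 5.2 for the subunits and 3.77 for H3K27ac, and DBDmut had SMARCA4 with a fold of 5.0. For that site SMARCC1 scaled to 4.97 in delIDR1 and 5.02 in DDX4, just below the weakest listed peaks of 5.03 and 5.07. The scaling is too rough to read so small a margin. At the DKK1 site and the TCF7L2 start it gave 45.7 and 20.9 fragments in DDX4, where the pileups were 88 and 34. In delIDR1 it gave 46.4 and 21.2, where they were 24 and 28. Whether a SMARCC1 peak at 98.4 kb could be listed in those 2 libraries was thus not settled. The 98.4 kb site lies close to the edge of the window. For TCF7L2 that edge falls between an H3K27ac peak of Empty replicate 2 at 99.8 kb (−log10 q 4.67) and one of delIDR1 at 101.9 kb (−log10 q 5.45). For FZD7 the last peak inside was WT H3K27ac at 95.1 kb and the first outside WT SMARCA4 at 100.6 kb (−log10 q 7.85). For RNF43 a CBR H3K27ac peak at 100.3 kb (−log10 q 25.1) fell just outside. So did the nearest SMARCA4 peak of every library but DBDmut, at 100.2 to 100.3 kb from the RNF43 start. The nearest SMARCC1 peak of WT, DBDmut, delIDR1 and Empty replicate 1 and the nearest HA peak of DDX4 also lay 100.3 kb away. The low RNF43 subunit counts and its lack of an HA peak thus hang on the window edge.

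**Figure D4:**
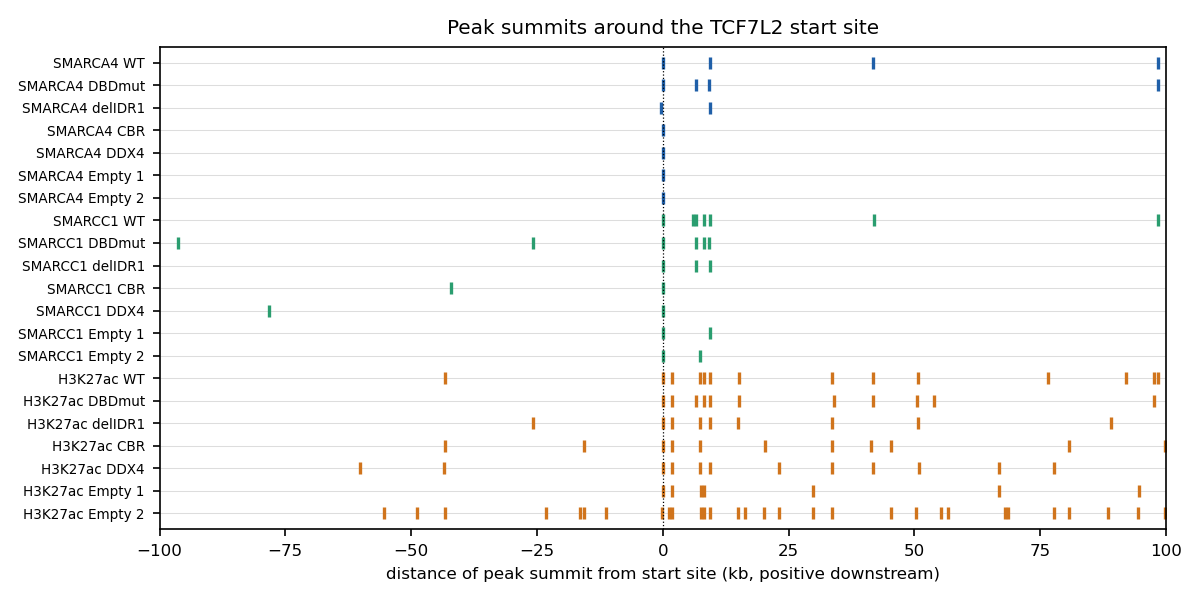
Summits of peaks within 100 kb of the TCF7L2 start site (dotted line), in kb, with 1 row per antibody and library. All 21 rows have a summit at the start, SMARCA4 in WT, DBDmut and delIDR1 has another near 9.3 kb, and only WT has both subunits near 41.7 kb.

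LEF1, the other TCF/LEF factor of the set, had 1 peak in all libraries, a SMARCA4 peak of Empty replicate 2, 13.2 kb upstream of the start (chr4:109089574), with a fold of 4.56. No H3K27ac peak lay nearer than 137.8 kb. At the start sites, TCF7L2 thus had BAF subunits and H3K27ac in every construct and LEF1 in none.

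Over the 8 windows WT had 6 BAF sites, a BAF site being a SMARCA4 peak that shares at least 1 bp with a SMARCC1 peak of the same construct. DBDmut had 4, delIDR1 3, CBR 2 and DDX4 1, against 2 and 2 in Empty. The 2 Empty sites in each replicate were those at the TCF7L2 start and upstream of DKK1. Of the 6 WT sites 3 were gained, meaning that neither subunit had a peak there in Empty replicate 1 or 2, against 45.0% of 9743 WT sites over the genome. Sites called constitutive, where Empty replicates 1 and 2 each had both subunits, were 2 of 6, against 26.5% over the genome. Both shares rest on 6 sites and lie near the genome values. Of the 200 kb tiles with a peak in any list, 41.0% held a WT BAF site.

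Of the 3 gained sites, 0 had both subunits in DBDmut, where 35.5% of 4383 gained sites over the genome did. The same count was 0 of 3 in delIDR1, CBR and DDX4, with genome shares of 14.0%, 5.5% and 0.479%. With 3 sites, a count of 0 is not set apart from any of these shares. H3K27ac overlapped 3 of the 3 in WT, where the genome share was 89.3%, 1 in DBDmut (72.4%), 1 in CBR (26.6%), 1 in DDX4 (26.9%) and 0 in delIDR1 (65.5%). The 1 site with H3K27ac in DBDmut, CBR and DDX4 was that 41.7 kb downstream of TCF7L2.

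Of the 34 WT H3K27ac peaks in the windows, 18 overlapped H3K27ac in neither Empty replicate, where 40.0% of 50885 did over the genome. By gene they were 9 of 15 at FZD7, 5 of 14 at TCF7L2, 2 of 3 at RNF43 and 1 of 1 at each of AXIN2 and DKK1. DBDmut had 5 of the 18, delIDR1 0, CBR 1 and DDX4 1, and the genome shares were 41.2%, 33.1%, 7.7% and 7.5%. A WT subunit peak overlapped 5 of the 18, and 13 were found in no mutant. Genome shares for these counts were not computed, so neither is read as particular to these windows. The delIDR1 count of 0 stood below its genome share while the CBR and DDX4 counts lay near theirs. Without Empty replicate 2, whose H3K27ac list is the longest, 26 peaks were gained, and 11 were found in DBDmut, 3 in CBR, 6 in delIDR1 and 7 in DDX4, so the count of 0 in delIDR1 rests on including that library. Genome shares for that setting are not given here. Whether any of these counts departs from its genome share was therefore not tested.

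The same scaling of WT pileups was applied to the gained H3K27ac peaks. Of those missing in a library, 13 of 13 in DBDmut, 17 of 18 in delIDR1, 16 of 17 in CBR and 17 of 17 in DDX4 scaled to above the weakest listed peak, against 15 of 18 in Empty replicate 1 and 18 of 18 in Empty replicate 2. The median scaled −log10 p was 8.93 in delIDR1, where the weakest listed peak had 4.32. Of the WT SMARCC1 peaks missing in a library, 2 of 5 in DBDmut, 5 of 6 in delIDR1, 1 of 8 in CBR and 6 of 8 in DDX4 scaled to below the weakest listed peak, against 2 of 7 in Empty replicate 1 and 0 of 8 in Empty replicate 2.

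In the other direction, 2 of the 13 H3K27ac peaks of Empty replicate 1 in the windows were also in Empty replicate 2 and had no WT peak, where 15.8% of 36348 did over the genome. Both lay downstream of TCF7L2, at 29.9 kb (fold 7.11 in Empty replicate 1) and at 94.6 kb (fold 4.18).

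**Figure D5:**
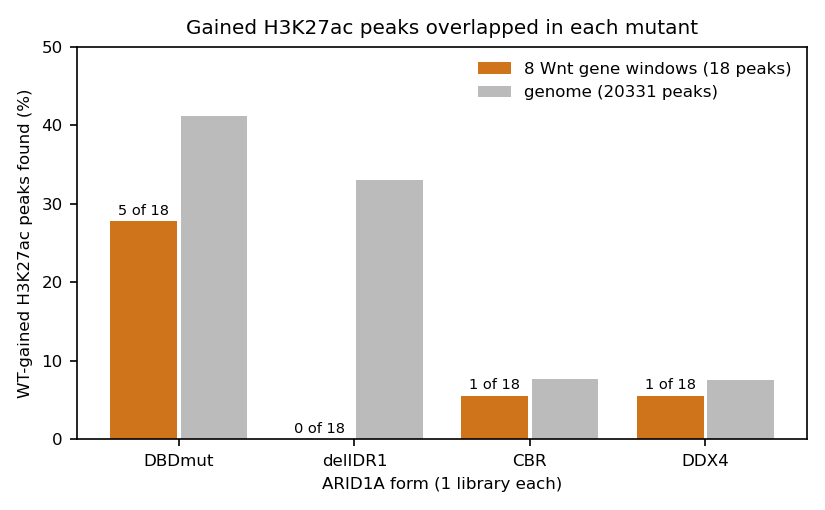
Percent of the WT H3K27ac peaks absent from both Empty replicates that overlap an H3K27ac peak of each mutant, in the 8 windows (orange, with counts of 18) and over the genome (grey). DBDmut has 5 of 18, delIDR1 0, CBR 1 and DDX4 1.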

How the data were processed

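Sample titles gave the construct and the antibody. The submitters' processing notes name the build hg19 and the tool bcl2fastq. For the aligner, the peak caller and control libraries, no statement was found (not given in the sources used here). The authors deposited 1 narrowPeak list per library, without pooling replicates. Tested on the values, the deposited fold is a ratio, (summit pileup + 1) over (local background + 1). Each peak further has the authors' −log10 p-value, −log10 q-value and score. All lists ended near a −log10 q of 2. These values are the authors' and were used to describe, rank or filter peaks within their own list.

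Only chromosomes 1 to 22 and X entered, and a peak belonged to a window by its summit. Overlap needed at least 1 bp. Pileup and background were recovered from the fold and the p-value, taken as a Poisson tail, with a tolerance of 0.001 in −log10 p, which 99.68% or more of each list met. The WT pileup and background at a site were multiplied by the ratio of the lowest backgrounds of the 2 libraries and set against the lowest −log10 p of the other list. This assumes that the site scales with the background, and it is 1 fixed value, not a test. Sites listed in both libraries could depart from it in either direction. At the DKK1 site, SMARCA4 scaled to 57.1 fragments in Empty replicate 2, where the pileup was 17. SMARCC1 there scaled to 45.7 in DDX4, where the pileup was 88. Code was tested on simulated data first.

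The genes, the lists and the rules were chosen with earlier results of these data known. All WT BAF sites in the windows are named, as are the gained H3K27ac peak of highest −log10 q per gene, start site peaks, and BAF sites that WT lacks. Other peaks named were chosen after their values were seen, as were the 200 kb tiles (those with a peak in any list), the merging of peaks into regions and the motif search. Other genes of the Wnt pathway were to be described only with an hg19 annotation and were not analysed here. RefSeq tables of GRCh38.p14 gave promoters and neighbouring genes, with no conversion of coordinates. Software was Python 3.11.15, matplotlib 3.10.9, pandas 2.3.3, scipy 1.17.1 and numpy 2.4.6.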

Additional observations from a re-analysis of the deposited data

How the results depend on the processing

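Of 171 values recomputed under other settings for 37 counts, 130 stayed within 1.5 times the reported count and 41 did not. The peaks per antibody and library stayed within it in every setting tried for them, which was counting any base of a peak in the window. The 3 gained BAF sites became 1 with a −log10 q of at least 5, 1 in 50 kb windows, 0 in lists shortened to equal lengths, 6 with SMARCA4 alone and 7 with SMARCC1 alone. H3K27ac in WT at those sites (3) became 1, 1, 0, 5 and 5 in the same settings. At equal lengths no gained BAF site was left, so every count of 0 at those sites in that setting was fixed in advance. In DBDmut (1) it became 2 with SMARCA4 alone, 4 with SMARCC1 alone and 0 at equal lengths. In delIDR1 (0) it became 1 and 2 with either subunit alone. In CBR (1) it became 0 at equal lengths and 0 with summits within 250 bp. In DDX4 (1) it became 2 and 2 with either subunit alone and 0 at equal lengths. Gained sites kept (0) became 2 and 2 in DBDmut and 1 and 1 in delIDR1 with either subunit alone. The 18 gained H3K27ac peaks became 5 in 50 kb windows, and those found in DBDmut (5) became 2 there. The gained peaks numbered 13 at equal lengths, 15 with a −log10 q of at least 5 and 19 with summits within 250 bp. Those found in delIDR1 (0) became 1 with a −log10 q of at least 5, 5 at equal lengths and 1 with summits within 250 bp. Those in CBR (1) became 0 with such summits, and those in DDX4 (1) became 2 with them and 5 at equal lengths.

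Leaving out an Empty replicate gave 3 to 4 gained BAF sites, of which 0 to 1 were kept by DBDmut, 0 to 1 by delIDR1, and H3K27ac was at 1 to 2 in DBDmut, 0 to 1 in delIDR1 and 1 to 2 in DDX4. The gained H3K27ac peaks numbered 18 to 26, and those found in the mutants 5 to 11 in DBDmut, 0 to 6 in delIDR1, 1 to 3 in CBR and 1 to 7 in DDX4, the higher values without Empty replicate 2. The site added without Empty replicate 1 was that 9.3 kb downstream of TCF7L2, which has SMARCC1 in that replicate. The cause of the other changes was not tested. No paired analysis was possible because only Empty has replicate numbers.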
